A study of Mus musculus with 2 samples.

Results

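The genes described here encode the subunits of the mitochondrial respiratory chain and of ATP synthase. They were taken by name, as every gene on the array whose symbol begins with Ndufa, Ndufb, Ndufc, Ndufs or Ndufv and a digit, with Uqcr, with Cox and a digit from 4 to 8, or with Atp5, together with Sdha, Sdhb, Sdhc and Sdhd. This gave 85 gene names on 128 probes, of 30163 names on 39429 probes in all. By complex there were 35 genes for complex I, 4 for complex II, 8 for complex III, 20 for complex IV and 17 for complex V. Complex IV here includes Ndufa4, which is now placed there, and its relative Ndufa4l2. The remaining name, Cox4nb (now Emc8), belongs to the endoplasmic reticulum and is no subunit. Atp5s and Atp5sl are now called Dmac2l and Dmac2. They are counted with complex V by their old names only and are not taken as established subunits of it.

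The RNA came from bone marrow mononuclear cells of C57/Bl6J mice, which include immune cells and blood progenitors, washed out of the femurs of animals aged 2 to 4 months in IMDM with 2% fetal bovine serum and harvested on day 11. The control culture received no drug, and the other received ninjin'yoeito (NYT), a herbal drug. Each group was 1 culture on 1 one-colour array, so each value compares 1 array with 1 other, without replicates and without a test. The sources used here do not give the dose, the number of animals pooled, or whether the cultures shared animals.

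The respiratory chain passes electrons from NADH (complex I) and succinate (complex II) through coenzyme Q, complex III and cytochrome c to oxygen at complex IV. Complexes I, III and IV pump protons across the inner mitochondrial membrane, and complex V, the ATP synthase, lets them back to make ATP. Most subunits are encoded in the nucleus, the core hydrophobic ones in mitochondrial DNA, and several subunits of complex IV exist as a common form and a form restricted to muscle, lung or testis.

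Values are processed spot intensities, given as multiples of the array's 75th percentile (relative intensity) and as log2 differences, NYT minus control, after that scaling. The NYT array was dimmer, with a 75th percentile of 728 against 1475, a ratio of 2.03, so scaling added 1.02 to each log2 difference. Of all genes, 16996 had a probe well above background on both arrays, and their median difference was 0.29 (quartiles -0.28 and 0.68). Without scaling that median was -0.73, and with scaling to spike-in RNA it was -0.89. The sign of most subunits' differences therefore depends on the scaling, and the values below are to be read against the median of all genes. The scanner software's error of a subunit's difference had a median of 0.20, and the spread of probes printed 10 times gave a median SD of 0.058. Both cover noise on the arrays and neither cultures nor animals.

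The labelled cell type was checked against markers. All 4 pan-leukocyte markers were measured on both arrays, with Ptprc (CD45) at -0.95, Coro1a at -1.15, Laptm5 at 0.91 and Cd53 at 0.75. Their summed relative intensity was 98.3 on the control and 89.5 on NYT. Makeup markers differed strongly between the cultures, with summed levels of 461 and 103 for 6 neutrophil genes, 265 and 30.7 for 4 megakaryocyte genes, 21.4 and 0.185 for 4 mast cell and basophil genes, and 12.8 and 4.38 for 5 T cell genes. For 5 B cell genes the sums were 25.4 and 21.6, for 5 monocyte and macrophage genes 270 and 282, for 4 erythroid genes 4.46 and 2.24, and for 4 stem and progenitor genes 10.6 and 26.1. The last sum was carried by Procr (3.18), while Cd34 and Kit stood at -3.54 and -3.33. The monocyte and macrophage sum was carried by Cd68 (1.18), while the other 4 genes were lower and the list's median was -0.78. On neither array was Klf1, a factor that defines the erythroid line, well above background. In such bulk samples fewer cells of a type and less RNA per cell cannot be told apart, and the part of cell makeup in the results below was not tested.

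The differences turn first on a pair of isoforms of complex IV, Cox6a2 and Cox6a1, and on a gene whose probes disagreed, Atp5g1. The first 30 of the 60 bases of their probes are shown, because they are what the values measure.
Cox6a2 (mm9 chr7:135349160-135349219, minus strand): agcaatcttcaaattggccttctgcacacc
Cox6a1 (mm9 chr5:115795726-115795785, minus strand): ggaccacgaaaaccctttggatgctaagct
Atp5g1, proximal (mm9 chr11:95934315-95934374, minus strand): tgccagtcctggtgctggagtctactgagc
Atp5g1, distal (mm9 chr11:95930317-95930376, minus strand): tttcaattattaaaagctttaagggctggc
The whole probes of Cox6a2 and Cox6a1 share no run longer than 6 bases, and the Cox6a2 probe shares at most 10 bases in a row with any other probe of these genes. Probes were compared with probes and not with transcripts, so this does not show what else a probe may bind. Cox6a2 was measured by 1 probe with 1 spot on each array. In the files the distal Atp5g1 probe starts at position 4504 of its target sequence and the proximal one at position 537.

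Nearly all the subunits lay above the median of all genes, by a small amount. Of the 85 genes 82 were measured on both arrays, and Cox7b2, Cox8b and Cox8c were well above background on neither. The 82 include Cox4nb, which is no subunit, and Atp5s and Atp5sl, counted by their old names. All are called subunits here by name. Without Cox4nb alone the 81 genes had a median of 0.71, with 79 above 0 and 77 above the median of all genes. The 82 had a median log2 difference of 0.72 (quartiles 0.56 and 0.88, range -0.65 to 4.89), against 0.29 for all genes. Of them 80 lay above 0, where 64.4% of all genes did, and 78 lay above the median of all genes. At least 2-fold higher were 13 of 82 (15.9%), near the background of 11.2%. None was at least 2-fold lower, against a background of 11.0%. At a 1.5-fold threshold 59 (72.0%) were higher, against 30.4% of all genes, and 1 was lower, against 16.9%. Most of the subunits thus lay above the median of all genes by less than 2-fold, and few were far from it.

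**Figure D1:**
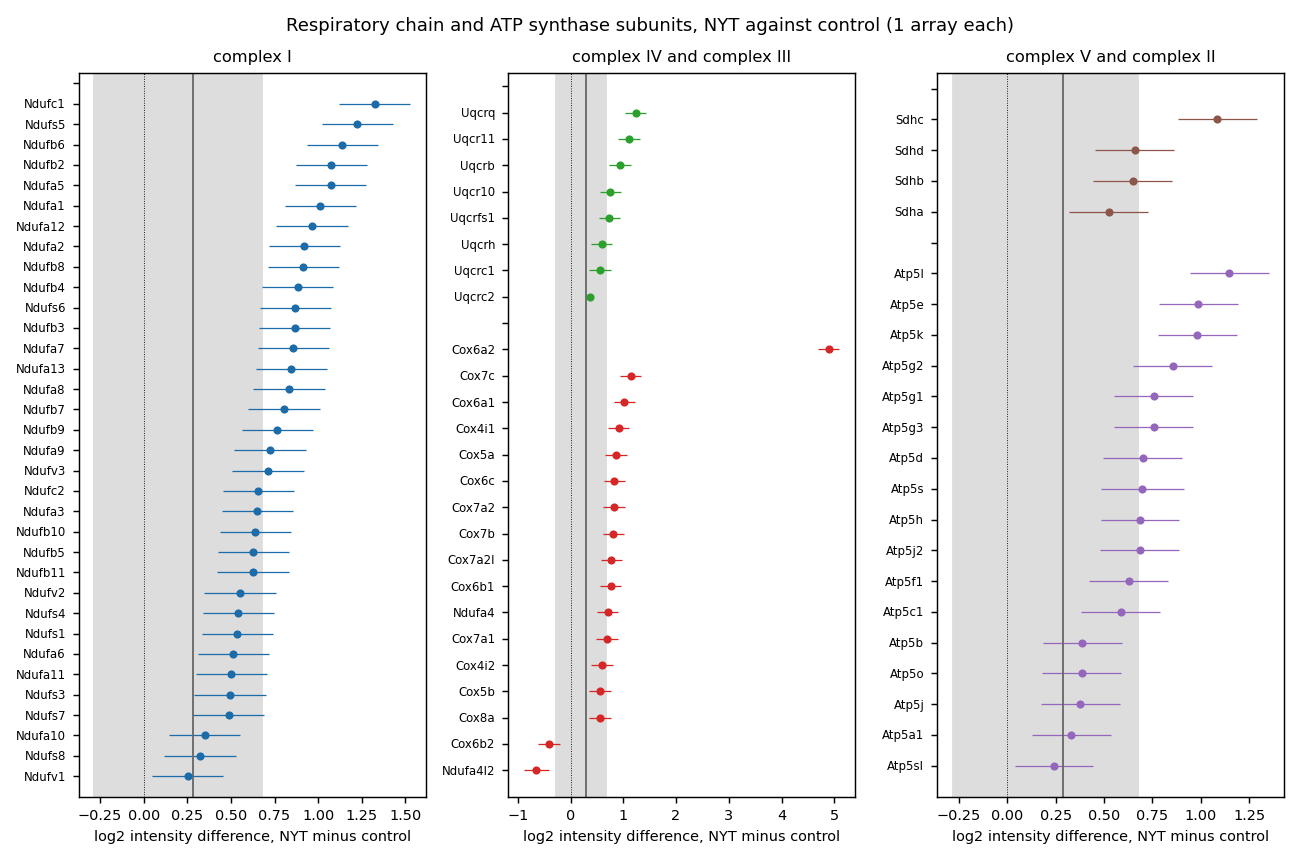
Log2 intensity difference (NYT minus control, 1 array each) of the measured subunits reported here, sorted within its complex; bars are the scanner software's error. The grey line is the median of all genes (0.29) and the grey band their quartiles (-0.28 to 0.68); nearly all points lie to the right of the line, and Cox6a2 (4.89) stands apart.

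Complex I accepts electrons from NADH, and its 35 nuclear genes taken here by name had a median of 0.72. Of them 34 lay above the median of all genes. The 7 conserved core subunits, which hold the flavin and the iron-sulphur clusters, lay low and close together at 0.25 to 0.55 (median 0.49). None of them reached 2-fold. The 28 accessory subunits, which surround and stabilise the core, lay at 0.35 to 1.32 (median 0.84). At least 2-fold higher were 6 of them (21.4%, against 11.2% of all genes).

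Among the accessory subunits Ndufc1 had a relative intensity of 13.5 on the control and 33.8 on NYT, a difference of 1.32. Ndufs5 stood at 19.1 and 44.5 (1.22), and Ndufb6 at 6.08 and 13.4 (1.14). Ndufb2 stood at 12.0 and 25.4 (1.08). These are small membrane-arm or intermembrane-space proteins of the complex. Ndufa5 followed at 13.8 and 29.0 (1.07), and Ndufa1 at 24.6 and 49.7 (1.01).

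At the low end, Ndufv1, the flavoprotein that binds NADH, stood at 14.2 and 16.9 (0.25). Ndufs8, which carries iron-sulphur clusters, stood at 3.29 and 4.11 (0.32). Both are core subunits and lay near the median of all genes. The lowest accessory subunit was Ndufa10 at 3.08 and 3.93 (0.35). Among the other core subunits, Ndufs7, Ndufs3, Ndufs1 and Ndufv2 differed by 0.49, 0.49, 0.54 and 0.55. The core median was below the accessory median in each of the 12 processing settings. Most of these leave the gap unchanged, since they shift every gene alike or gave the same medians. Where it could change, the medians were 0.06 against 0.37 after loess and 0.19 against 0.47 with quantile normalization. They were 0.42 against 0.79 with normexp and 0.19 against 0.47 by the authors' values.

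Complex II is also the succinate dehydrogenase of the tricarboxylic acid cycle, and its 4 subunits had a median of 0.65. The membrane anchor Sdhc stood at 5.29 and 11.2 (1.08), the only one at least 2-fold higher (25%, against 11.2% of all genes). The other anchor, Sdhd, stood at 16.1 and 25.4 (0.66). The iron-sulphur subunit Sdhb stood at 27.9 and 43.6 (0.65), and the flavoprotein Sdha, which oxidises succinate, at 10.8 and 15.5 (0.52). All 4 lay above the median of all genes.

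Complex III passes electrons from coenzyme Q to cytochrome c, and its 8 genes had a median of 0.75. The small subunit Uqcrq stood at 27.8 and 65.4 (1.23), and Uqcr11 at 20.1 and 43.3 (1.11). Uqcrb, a subunit at the coenzyme Q site, stood at 16.6 and 31.9 (0.94). The large core proteins were lower in difference, with Uqcrc1 at 5.06 and 7.45 (0.56) and Uqcrc2 at 11.1 and 14.3 (0.37). Uqcrc2 was the best measured of all the subunits, since its probe was printed 10 times, and its software error was 0.066. The hinge protein Uqcrh stood at 36.9 and 55.5 (0.59). The Rieske iron-sulphur protein Uqcrfs1 and the small subunit Uqcr10 differed by 0.74 and 0.75. Cyc1, the cytochrome c1 of this complex, has a name outside the rule and stood at 9.58 and 10.3 (0.11), below all 8.

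Complex IV, cytochrome c oxidase, reduces oxygen, and 17 of its 20 genes were measured, with a median of 0.77. Its 12 common subunits lay between 0.56 and 1.14 (median 0.82), all above the median of all genes. Cox7c was the highest of them at 11.5 and 25.4 (1.14), followed by Cox6a1 at 119 and 242 (1.02). Cox4i1, the largest nuclear subunit, stood at 57.0 and 107.1 (0.91). Cox8a was the lowest at 70.1 and 103 (0.56).

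The 5 measured tissue isoforms did not share one direction. Cox6a2, the form of heart and skeletal muscle, was 0.259 on the control and 7.68 on NYT, from an intensity of 382 to 5592. Its difference of 4.89 ranked 7 from the highest of 16996 genes, and Cox6a1, which takes the same place in other tissues, differed by 1.02. The gap of 3.87 between the isoforms was between 3.60 and 4.51 in the 12 settings, most of which leave it unchanged by construction. Cox6a2 itself stayed between 3.71 and 4.90. Cox6a2 passed from well below the array's 75th percentile to above it, while the common form was bright on both arrays.

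Ndufa4l2, the hypoxia-induced relative of Ndufa4, stood at 0.115 and 0.0730 (-0.65), while Ndufa4 stood at 11.2 and 18.2 (0.70). With normexp background correction the Ndufa4l2 difference was 0.01. Cox6b2, the testis form, stood at 0.269 and 0.202 (-0.41), and Cox6b1 at 4.31 and 7.29 (0.76). These were the 2 subunits below 0 as scaled. Cox4i2, a form of lung, stood at 0.162 and 0.246 (0.60), below Cox4i1 by 0.31. Cox7a1, a form of muscle, stood at 0.463 and 0.749 (0.69). Its difference was close to those of Cox7a2 at 13.0 and 22.9 (0.82) and the related Cox7a2l at 44.4 and 75.9 (0.77). For the isoforms well above background on neither array, the common counterpart Cox7b stood at 20.8 and 36.5 (0.81), and that of Cox8b and Cox8c was Cox8a.

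**Figure D2:**
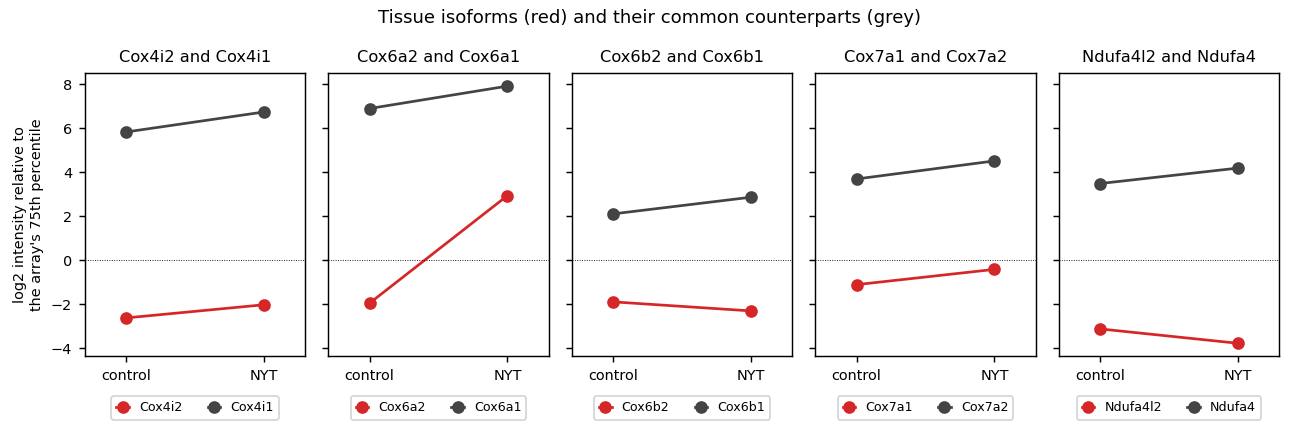
Log2 intensity relative to the array's 75th percentile (dotted line at 0) on the control and NYT arrays for 5 tissue isoforms in red and their common counterparts in grey, 1 array each. Slopes may be compared, levels of different probes may not; Cox6a2 is higher on NYT by 4.89, while Cox6b2 and Ndufa4l2 are lower.

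Markers of striated muscle and of testis germ cells were mostly dim or not well above background. Of 17 striated muscle genes 6 were measured on both arrays. Tnni2 was higher at 1.79 and 4.28 (1.25), as was Myh7 at 0.0206 and 0.0426 (1.05). Acta1 was lower at 0.177 and 0.0387 (-2.19). Another 9, including the defining genes Ckm, Mb, Myog, Myod1, Myh1, Myh2 and Myh4, were well above background on neither array, and Myh6 and Mylpf on the control array alone. The summed relative intensity of the list was 2.63 and 4.81, most of it Tnni2. In mice Cox6a2 is also known from plasmacytoid dendritic cells. All 11 markers of that cell type were measured, with a median of 0.28, near the 0.29 of all genes. Their summed level was 102 and 126, and 8 lay above 0, Siglech among them at 52.4 and 64.4 (0.30). None was at least 2-fold higher, against 11.2% of all genes. Only Ccr9 was at least 2-fold lower (9.09%, against 11.0% of all genes), at 0.716 and 0.0706 (-3.34). Of 7 testis germ cell genes 2 were measured on both arrays, Prm2 (0.87) and Tnp1 (0.93), and the sums were 0.404 and 0.216. Another 4 were well above background on the control alone. Of these Ldhc was at least 7.02-fold and Pgk2 at least 3.23-fold lower on NYT, while the bounds of Prm1 and Tnp2 were 1.04 and 0.986.

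The neighbours of Cox6a2 on chromosome 7, looked up after its value was seen, did not share its direction as scaled. Of the 4 protein-coding genes on each side in RefSeq, 4 were measured on both arrays. Itgam and Itgax, integrins of myeloid cells, differed by -0.78 and -2.15. Armc5 differed by -0.09 and Tgfb1i1 by -3.56.

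Complex V makes ATP, and its 17 genes had a median of 0.69, which was unchanged to 2 decimals over the 15 without Atp5s and Atp5sl. Atp5l, subunit g of the membrane part, stood at 36.9 and 81.6 (1.15), the only one at least 2-fold higher (5.88%, against 11.2% of all genes). Atp5e, the small epsilon subunit of the F1 head, stood at 31.4 and 62.1 (0.99), and Atp5k, subunit e, at 21.1 and 41.6 (0.98). The catalytic head subunits were lower in difference, with Atp5a1 (alpha) at 27.0 and 33.9 (0.33) and Atp5b (beta) at 60.2 and 78.7 (0.39). Atp5j, coupling factor 6 of the stalk, stood at 13.2 and 17.1 (0.38), and Atp5sl, counted by its old name, at 3.12 and 3.69 (0.24). The 5 head subunits had a median of 0.59 and the 12 others 0.69. Atp5g1, Atp5g2 and Atp5g3 encode the same mature proton-carrying subunit c and lay close together at 0.76, 0.86 and 0.76.

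**Figure D3:**
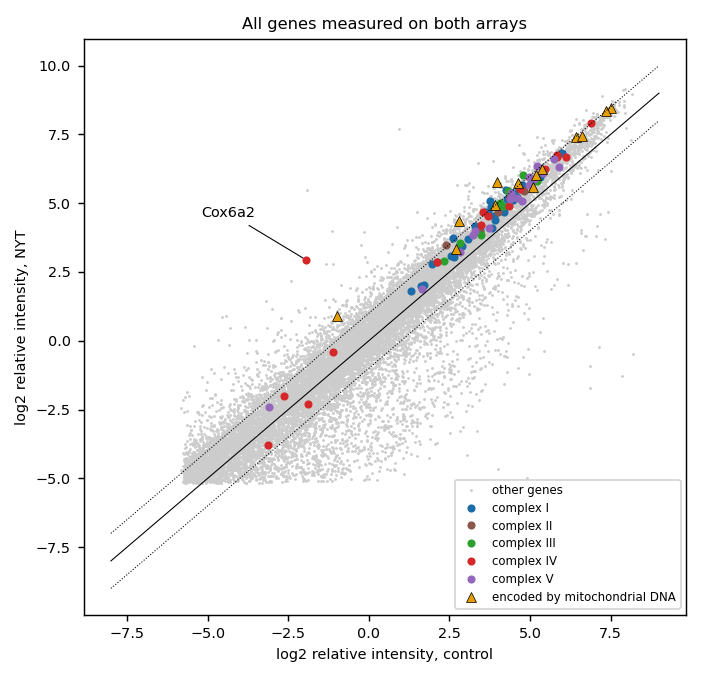
Log2 relative intensity of every gene measured on both arrays, control (horizontal) against NYT (vertical), with subunits coloured by complex and mitochondrially encoded genes as triangles; the solid line marks equality and the dotted lines 2-fold. Most subunits lie above the solid line among the bright genes; Cox6a2 lies far above it, and the dim Cox6b2 and Ndufa4l2 lie below it.

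Probes of one gene mostly gave the same answer. Of 28 subunits with several measured probes, 20 had all probes within 0.3, and the median range was 0.14, against 0.34 over 4020 other genes. Only 3 had probes of opposite sign (26.3% of the other genes did). Some probes of one gene overlap on the genome, as in Uqcrb, Uqcr10, Ndufb4 and Atp5f1, so their agreement is no independent check. Overlap was not counted in either set. Opposite signs are also less likely in genes whose differences lie away from 0. In Ndufa3 a dim probe stood at 0.101 and 0.0994 (-0.03), while the brightest stood at 39.9 and 62.6 (0.65). In Ndufv3 the lowest probe stood at 0.180 and 0.174 (-0.05) and the brightest at 33.2 and 54.4 (0.71). Atp5g1 was the only one whose probes differed by more than 1. Its proximal probe stood at 21.0 and 35.5 (0.76) and the distal one, printed above, at 7.96 and 6.11 (-0.38). Both Atp5g1 probes were well above background, and as scaled they gave opposite directions. In all, 8 probes of 7 genes were placed by the files elsewhere than on the gene's chromosome, those of Atp5k among them on unplaced sequence. They include the probes that represent Atp5j2 and Atp5l. For these genes signal of a near-identical copy cannot be told apart from that of the gene. Probes on the gene's own chromosome gave 0.60 for Atp5j2 and 1.05 to 1.25 for Atp5l.

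The difference also went with the start position of the probe in its target. Across the 82 subunits the Spearman correlation between the probe's start position and the difference was -0.51, and across 15838 genes with a position it was -0.19. These are descriptions over genes that share both arrays, and the comparison was made after the values were seen. Subunits with a start of up to 400 had a median of 0.87 (24 genes) and those from 400 to 800 a median of 0.76 (37 genes). All genes in the same bins had medians of 0.43 and 0.47. From 800 to 1600, from 1600 to 3200 and beyond 3200 the medians of all genes were 0.37, 0.22 and 0.01. The median start was 880 for the complex I core against 453 for its accessory subunits, and 1610 for the F1 head against 532 for the rest of complex V. The lower medians of the core and head subunits thus came with later median starts, but single genes went both ways. Atp5e of the head had an early start of 274 and a difference of 0.99. The core subunit Ndufs8 had an early start of 380 and a difference of 0.32. The accessory subunits Ndufa11 and Ndufa6 started at 56 and 232 and differed by 0.50 and 0.51. The part of probe position was not tested. The length of the target was not examined, so a trend with position cannot be told apart from one with length. Brighter subunits also had larger differences (Spearman 0.35, against 0.09 over all genes).

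**Figure D4:**
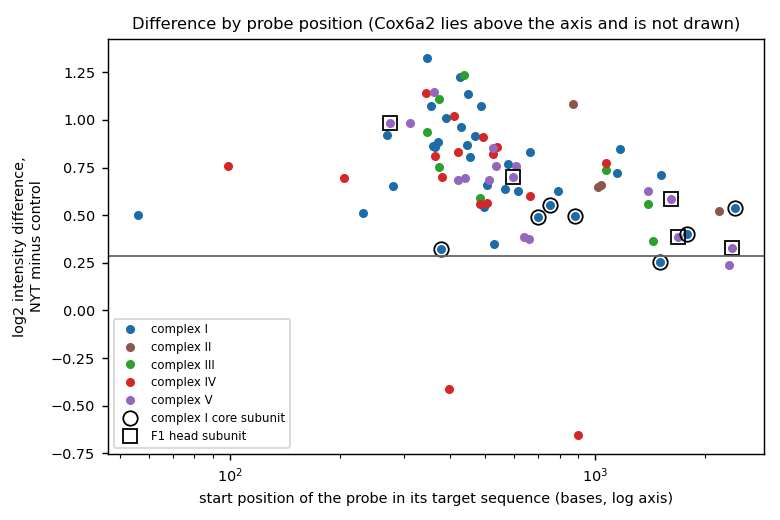
Log2 difference (NYT minus control) of each subunit against the start position of its probe in the target sequence (bases, log axis), coloured by complex, with circles round complex I core and squares round F1 head subunits; the grey line is the median of all genes (0.29). The core subunits lie between 0.25 and 0.55, and the head subunits are spread, with Atp5e (0.99) at an early start.

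The 13 subunits encoded by mitochondrial DNA were all higher as scaled, with a median of 0.97. At least 2-fold higher were 6 of them (46.2%, against 11.2% of all genes). The complex I subunit ND6 stood at 0.501 and 1.86 (1.89), ND4L at 15.6 and 54.2 (1.79), ND5 at 6.97 and 20.3 (1.54) and ND2 at 24.8 and 53.4 (1.11). The lowest were ND3 at 0.50 and ND1 at 0.64. COX1, the catalytic subunit of complex IV, stood at 181 and 353 (0.96). Without scaling the median was -0.05. After loess it was 0.32 against 0.27 for the nuclear subunits, and with quantile normalization 0.42 against 0.38, so the gap between them was small in these settings.

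Of 46 assembly factors, which build the complexes and are not part of them, 43 were measured, and 7 (16.3%, against 11.2% of all genes) were at least 2-fold higher and none lower. Their median was 0.66, and with quantile normalization it was 0.58, above the subunits' 0.38. Timmdc1, for complex I, stood at 2.87 and 10.1 (1.81), but another of its probes gave 0.75. Uqcc2, for complex III, stood at 6.68 and 17.3 (1.37), Sco2, which delivers copper to complex IV, at 1.68 and 4.10 (1.29), and Ndufaf4 at 1.27 and 2.83 (1.16).

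As scaled, the medians of the lists around the chain lay nearer to that of all genes than the subunits' median did. Of 21 electron carrier and coenzyme Q genes 20 were measured, with a median of 0.28, and 2 (10%, against 11.2% of all genes) were at least 2-fold higher. Coq7, a hydroxylase of coenzyme Q synthesis, stood at 0.944 and 3.69 (1.97), although its other probe gave 0.25. Coq10a stood at 0.754 and 1.73 (1.19) and Coq8a at 0.270 and 0.155 (-0.80). Ndufab1, the mitochondrial acyl carrier protein, has a name outside the rule and stood at 0.517 and 0.987 (0.93). All 18 genes of the tricarboxylic acid cycle and pyruvate dehydrogenase were measured (median 0.41). Pdhx, a part of pyruvate dehydrogenase, was the only one at least 2-fold higher (5.56%, against 11.2% of all genes), at 0.571 and 1.16 (1.02). Pcx, Pdhb and Ogdh differed by 0.83, 0.79 and 0.67, but other probes of Pdhb and Ogdh gave -0.95 and -0.21.

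None of the 17 regulators of mitochondrial biogenesis was 2-fold higher or lower, against 11.2% and 11.0% of all genes, and their median was 0.37. Polg, which copies mitochondrial DNA, stood at 1.59 and 0.849 (-0.91), and Pprc1, a coactivator, at 0.0853 and 0.161 (0.91). Twnk, the mitochondrial helicase, stood at 0.147 and 0.247 (0.75), and Gabpb1, a subunit of the factor also called NRF-2, at 1.84 and 1.18 (-0.64). Nrf1, the factor that binds many respiratory gene promoters, stood at 1.38 and 0.903 (-0.61), while another of its probes gave 0.12. Of 14 genes for nucleotide exchange, uncoupling and outer membrane pores 11 were measured, with a median of 0.57. After loess it was 0.32, with quantile normalization 0.43 and by the authors' values 0.43, above the subunits' 0.27, 0.38 and 0.38. Atpif1, the inhibitor of ATP synthase, stood at 67.8 and 137 (1.02). The pore Vdac2 differed by 0.93, the phosphate carrier Slc25a3 by 0.91 and the ADP/ATP carrier Slc25a4 by 0.84. The uncoupling proteins Ucp2 and Ucp3 lay on the other side of 0, at -0.44 and -0.36.

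Promoters were searched because the common subunits lay close together. The RefSeq table (GRCm38.p6) held a window of 300 bases, 250 before and 50 after the start, for 69 of the 85 genes and for 27025 genes in all. On both strands, the NRF1 core (GCGCA, any base, GCGC) was in 17 of 69 (24.6%, against 5.19% of all genes), the ETS core CCGGAAG in 16 (23.2%, against 9.93%), the YY1 core GCCATNTT in 18 (26.1%, against 6.96%), and the CCAAT box CCAAT in 31 (44.9%, against 41.1%). The motifs may overlap and a match is a match of letters only. Genes with and without a motif differed little, with medians of 0.76 and 0.70 for the NRF1 core, 0.72 and 0.70 for ETS, 0.63 and 0.75 for YY1, and 0.70 and 0.72 for CCAAT. The promoters of 3 genes are shown, the common and testis forms of Cox6b, whose signals went opposite ways as scaled, and Ndufs5, the highest subunit with an NRF1 core. Capitals mark these motifs on either strand.
Cox6b1 (GRCm38.p6 chr7:30626115-30626364, minus strand): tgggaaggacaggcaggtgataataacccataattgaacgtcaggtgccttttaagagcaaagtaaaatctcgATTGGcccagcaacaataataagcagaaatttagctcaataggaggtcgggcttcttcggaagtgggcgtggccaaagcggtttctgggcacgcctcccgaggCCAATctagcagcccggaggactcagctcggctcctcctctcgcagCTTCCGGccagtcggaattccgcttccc
Cox6b2 (GRCm38.p6 chr7:4753095-4753344, minus strand): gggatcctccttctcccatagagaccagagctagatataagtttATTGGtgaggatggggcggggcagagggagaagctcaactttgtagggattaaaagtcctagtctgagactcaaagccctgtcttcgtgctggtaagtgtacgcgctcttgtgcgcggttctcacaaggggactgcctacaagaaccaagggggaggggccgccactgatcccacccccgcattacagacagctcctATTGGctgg
Ndufs5 (GRCm38.p6 chr4:123718187-123718436, minus strand): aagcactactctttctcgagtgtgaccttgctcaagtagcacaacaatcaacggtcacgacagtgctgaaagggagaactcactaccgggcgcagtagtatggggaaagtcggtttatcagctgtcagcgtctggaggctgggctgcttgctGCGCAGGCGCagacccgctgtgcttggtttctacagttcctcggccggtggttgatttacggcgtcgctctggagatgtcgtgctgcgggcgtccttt
Each runs 5′ to 3′ on the gene's strand and ends at the base before the start. Cox6b1 holds an ETS core on the other strand, 28 to 22 bases before the start, and CCAAT boxes on both strands. Cox6b2 holds 2 CCAAT boxes on the other strand and none of the other 3 motifs in the printed bases. Ndufs5 holds the NRF1 core 98 to 89 bases before the start.

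The subunits' median lay above that of all genes in each of the 12 settings, while its sign changed with the scaling. With median scaling, no scaling or spike-in scaling their median lay 0.43 above that of all genes, which is fixed because these settings shift every gene alike. After loess the gap was 0.30 (0.27 against -0.02), with quantile normalization 0.18 (0.38 against 0.20), and by the authors' values 0.18 (0.38 against 0.20). Above the median of all genes lay 73 of 82 after loess and 67 with quantile normalization. Above 0 lay 77 subunits with quantile normalization, where 61.5% of all genes did, 73 after loess (48.4%), 12 without scaling (10.7%) and 4 with spike-in scaling (7.16%). Of the 13 subunits at least 2-fold higher, the only one left under quantile normalization, loess, no scaling or spike-in scaling was Cox6a2. Of all genes 11.0%, 5.53%, 1.24% and 0.977% were at least 2-fold higher in those settings. At least 2-fold lower were Cox6b2 and Ndufa4l2 without scaling, where 36.4% of all genes were, and 2 subunits with spike-in scaling, where 44.0% were. After loess and with quantile normalization no subunit was, against 13.9% and 10.7% of all genes.

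**Figure D5:**
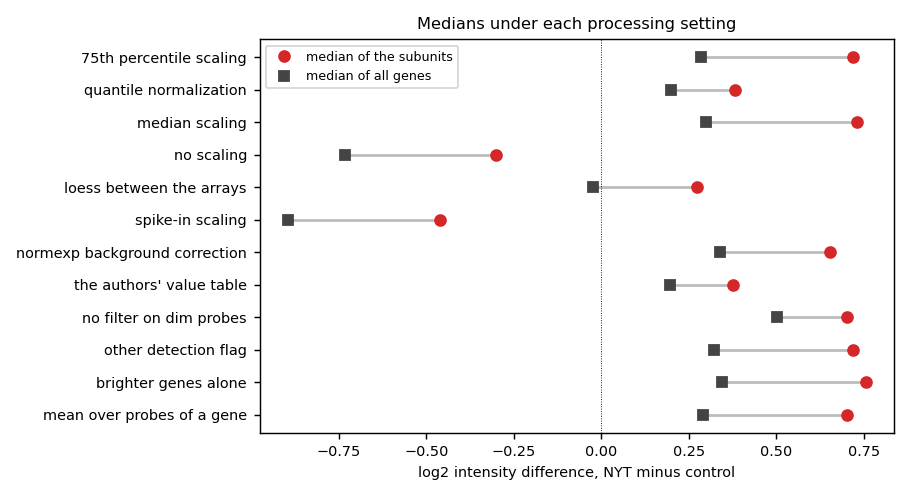
Median log2 difference (NYT minus control) of the subunits (red circles) and of all genes (grey squares) under each of the 12 processing settings, 1 array per group. The subunits' median is above that of all genes in every setting, and both lie below 0 without scaling and with spike-in scaling.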

How the data were processed

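The authors deposited scanner output with spot intensity for 2 one-colour arrays of 1 slide. The file headers name Agilent Feature Extraction 10.7.1.1, while the submitters' processing notes name 9.5.1.1. The labels and the design text name different RNA extraction kits. Outlier and control spots were left out, each probe took the mean log2 processed intensity of its spots, and the 75th percentile of each array was subtracted. A gene was its brightest probe well above background (over 50% of its spots) on both arrays, and no subunit's spot was saturated. A value table deposited by the authors, also intensity, served as an alternative.

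Probe coordinates are those of the files (mm9). Names and promoters came from RefSeq (GRCm38.p6), and an accession named 26761 probes, a symbol 3814 and a synonym 639, while 8215 kept the file's name. The members, gene lists, thresholds and naming rule were chosen with earlier results of these data known. Both array values are given for the tissue isoforms and their counterparts, the 3 highest and 3 lowest of each complex, members at least 2-fold apart and members whose probes disagree. From each other list up to 4 genes with the largest difference are given. A few further values were named for their role and chosen after being seen. With 1 array per group the number of arrays limits the precision. Some single genes are not reported here. The counting step was tested on simulated data. Python 3.11.15 (quantile normalization included), R 4.3.3 and limma 3.58.1 (normexp with an offset of 50) were used, and 14 alternatives were tried.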

Additional observations from a re-analysis of the deposited data

How the results depend on the processing

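No paired analysis was possible because there was 1 array per group, and leaving out an array would leave no comparison. The cause of the changes below was not tested. Another filter changes the number of genes by construction. The median of the subunits was 0.38 with quantile normalization, -0.30 without scaling, 0.27 after loess, -0.46 with spike-in scaling and 0.38 in the authors' value table. Under each of these 5 settings 1 subunit was at least 2-fold higher. In the same order 11.0%, 1.24%, 5.53% and 0.977% of all genes were, and for the authors' table that share was not counted. Without scaling and with spike-in scaling 2 subunits were at least 2-fold lower, against 36.4% and 44.0% of all genes. At 1.5-fold 59 were higher and 1 lower, against 30.4% and 16.9% of all genes. At 3-fold 1 was higher, and the share of all genes was not counted. In the order complex I, II, III, IV and V, the medians were -0.29, -0.37, -0.27, -0.24 and -0.33 without scaling, -0.46, -0.53, -0.43, -0.41 and -0.49 with spike-in scaling, and 0.25, 0.18, 0.33, 0.33 and 0.22 after loess. For complex I, II, IV and V they were 0.39, 0.28, 0.42 and 0.31 with quantile normalization and 0.39, 0.28, 0.41 and 0.30 in the authors' table. Complex II stood at 0.49 with normexp. The median of all genes was 0.20 with quantile normalization, -0.73 without scaling, -0.024 after loess, -0.89 with spike-in scaling, 0.34 with normexp, 0.20 in the authors' table, 0.50 with no filter on dim probes, 0.32 with the other detection flag and 0.34 among the brighter genes. With spike-in scaling 9 of the 13 subunits at least 2-fold higher turned below 0, namely Atp5l (-0.032), Cox6a1 (-0.16), Cox7c (-0.038), Ndufa1 (-0.17), Ndufa5 (-0.11), Ndufb2 (-0.10), Ndufb6 (-0.042), Sdhc (-0.094) and Uqcr11 (-0.071). Ndufa1 also turned without scaling (-0.0073). Searched on the gene strand alone, the NRF1, ETS, YY1 and CCAAT shares of the members were 17.4%, 7.25%, 5.80% and 24.6%, against 3.30%, 5.39%, 3.16% and 23.7% of all genes. Signal near background limits the dim isoforms, whose differences rest on low intensities.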
